A study of Mus musculus with 6 samples.

Results

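Mitochondrial protein import and proteostasis was followed here through 35 genes in a mouse macrophage-like line, RAW264.7. The genes were taken by symbol from a fixed list that covers the import machinery, the presequence-processing peptidase, the matrix chaperones, the matrix and inner membrane proteases, and an outer membrane assembly factor with 2 subunits that shape cristae. All 35 matched a row of the table of 55401 genes, and 34 passed the filter on low counts. Only Tomm6 did not.

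The libraries with treatment came from wild-type RAW264.7 cells given molybdenum disulfide (MoS2), a layered metal sulfide, at 6.25 µg/ml, and the comparison libraries from the same line given phosphate-buffered saline (PBS). There were 3 libraries in each group, and RNA was measured by bulk RNA sequencing. All libraries come from 1 immortalised line, and the sources used here do not give how long treatment lasted. Nothing in the labels tells whether each library came from its own culture. The p-values thus rest on the spread among these libraries alone, which may be technical.

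Nearly all mitochondrial proteins are made in the cytosol and must be imported. Precursors cross the outer membrane through the TOM complex, are shuttled between the membranes by small TIM chaperones, and enter the inner membrane or the matrix through the TIM22 and TIM23 translocases, with an Hsp70 motor that pulls at TIM23. In the matrix the targeting sequence is cut off, chaperonins fold the protein, and ATP-dependent proteases remove what fails to fold; in many mammalian cells the genes for these chaperones and proteases respond to mitochondrial protein stress through transcription factors such as ATF4, ATF5 and CHOP.

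Total counts per library were 15767618 to 18412762 with MoS2 and 17008020 to 17695883 with PBS. The libraries differed in composition: the 10 most abundant genes took 18.9 to 19.6% of each MoS2 library, against 5.25 to 5.64% of each PBS library. TMM scaling, which sets the bulk of genes near no change, gave factors of 0.743 to 0.783 for MoS2 and 1.30 to 1.31 for PBS libraries. Scaling by library totals alone moved the median log2 fold change of all genes by -0.77, so values under library totals are given beside those with TMM scaling. The cells carried macrophage RNA in both groups. All 8 macrophage markers had counts, with a sum of 60558 to 70921 in MoS2 and 164144 to 174971 in PBS libraries, while 15 markers of T cells, B cells, epithelium, fibroblasts and endothelium summed to 16 to 25 and 22 to 37 counts, with Cd3d, Ms4a1 and Cdh1 among those at 0 in all libraries. The macrophage markers did not move as one: with TMM scaling Cd68 and Itgam were called higher (log2 fold changes 1.09 and 1.48), Csf1r, Lyz2, Fcgr1 and Spi1 lower (-1.90, -0.87, -1.06 and -0.42), and Adgre1 and Cd14 were not called. The part of these marker differences in the results below was not tested.

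Relative to the bulk of genes, most of the import and proteostasis genes had higher levels with MoS2 than with PBS, whereas their share of all counts overlapped between the groups. Of the 34 tested genes, 30 rose, where 38.3% of the 12972 genes tested were called higher, and 2 fell, where 42.4% were called lower (edgeR quasi-likelihood test, Benjamini-Hochberg adjusted p under 0.05). The small TOM subunit Tomm7, the co-chaperonin Hspe1, the motor subunit Pam16 and the cristae protein Chchd3 rose by a log2 fold change of 1.78 to 2.03. Tomm70a, the receptor for carrier precursors, and Timm10, a small TIM chaperone, fell by 0.33 and 0.32 on the log2 scale. Timm9 and Chchd4 did not pass the test.

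The median log2 fold change of the 34 genes was 0.87, beside -0.08 over all genes tested, and 32 of the 34 lay above that overall median. The values ran from -0.33 to 2.03 with a standard deviation of 0.603, against 1.57 over all genes. A log2 change above 1 was seen for 13 of the 34, beside 19.6% of all genes, and above 1.5 for 6, beside 10.7% of all genes. With library totals alone the same fit called 13 of the 34 higher, where 18% of all genes were, and 12 lower, where 67.7% were. The median of the 34 was then 0.10, with 19 positive and 15 negative values, against a median of -0.85 over all genes. In counts as deposited, the 35 genes made up 0.412, 0.408 and 0.416% of the MoS2 libraries and 0.429, 0.404 and 0.395% of the PBS libraries. These shares overlap between the groups. Over all libraries Hspa9 took 21.8 to 24.5% of the counts of the 35 genes, Lonp1 12.8 to 14.2% and Hspd1 8.56 to 11.9%. The summed share thus rests largely on a few abundant genes. In bulk RNA, fewer cells of a type and less RNA per cell cannot be told apart.

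**Figure D1:**
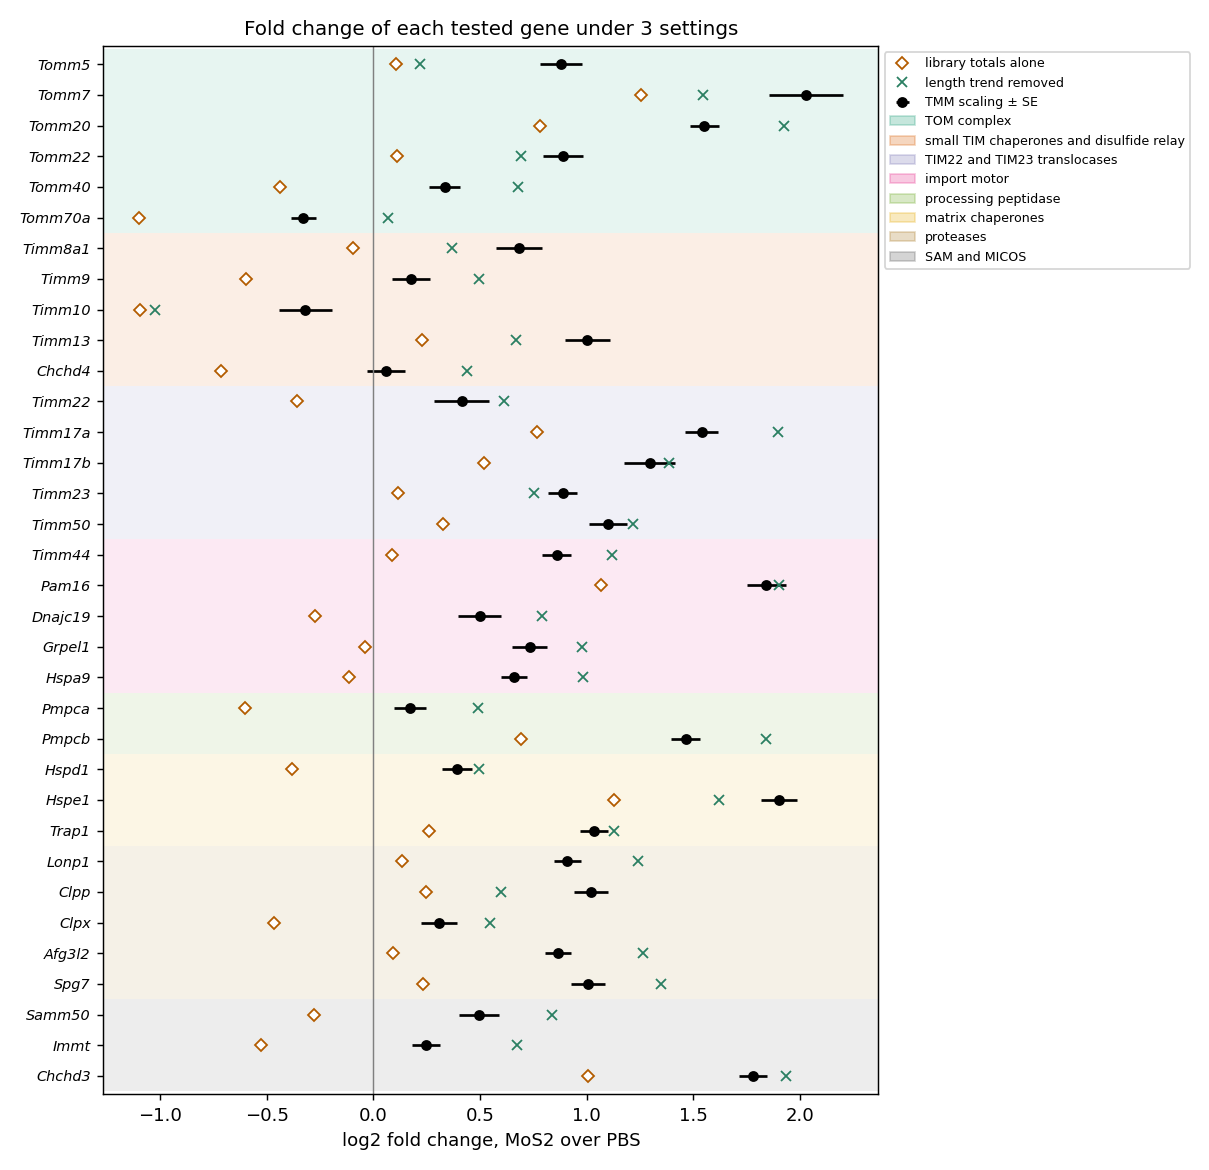
Log2 fold change (MoS2 over PBS, horizontal axis) of the 34 tested genes, in rows shaded by role. Filled points are TMM-scaled fits with their standard error, open diamonds the fit on library totals alone, and crosses the fit with the trend on gene length removed; 30 filled points are called higher, and the diamonds spread around 0 from -1.10 to 1.25.

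TOM, the entry gate of the outer membrane, had 5 of 6 tested subunits called higher with MoS2 and 1 lower with TMM scaling. The shares of all genes tested were 38.3% higher and 42.4% lower. Tomm20, the receptor that binds presequences, had 304, 282 and 310 CPM (counts scaled to library size, here with TMM factors) in MoS2 libraries, against 108, 97.4 and 99.8 CPM in PBS libraries. The groups did not overlap, and its log2 fold change was 1.55 ± 0.07 (SE, edgeR test, adjusted p 9.5e-11). Tomm70a (chr16:57121703-57156705, GRCm38) is the receptor for carrier precursors, and its libraries lay the other way. It had 143, 138 and 142 CPM with MoS2, against 178, 172 and 180 CPM with PBS, a log2 fold change of -0.33 ± 0.06 (edgeR test, adjusted p 0.00016) that became -1.10 under library totals and 0.07 once the length trend was removed.

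Tomm7 (chr5:23838944-23844161), a small subunit that in human cells is needed to hold the kinase PINK1 at damaged mitochondria, showed the highest fold change of the 34. Its libraries held 62.8, 57.8 and 72.9 CPM with MoS2, against 12.1, 22.1 and 13.2 CPM with PBS, and the log2 fold change was 2.03 ± 0.17 (edgeR adjusted p 9.6e-08). The second PBS library was the highest of its group but still far below every MoS2 library. Tomm5, another small subunit, averaged 65.5 ± 4.39 CPM with MoS2 and 35.5 ± 4.88 CPM with PBS (SD, n = 3 each), and Tomm22, the central receptor, 64.5 ± 8.78 and 34.9 ± 1.51 CPM. Their log2 fold changes were 0.88 ± 0.10 and 0.89 ± 0.09 with TMM, and both became 0.11 under library totals. Tomm40, which forms the channel itself, moved least among those that rose: 72.6 ± 4.58 CPM with MoS2 and 57.6 ± 2.42 CPM with PBS. Its log2 fold change of 0.33 became -0.44 under library totals, where Tomm40 was called lower.

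The small subunit Tomm6 was close to undetected in both groups. It had 0, 0 and 1 counts in MoS2 libraries and 11, 5 and 8 counts in PBS libraries, and no fold change is given. The annotation shares 859 of its exonic bases, 76.0%, with another gene model on the same strand, Gm21981, which had 3 counts in all. The sources used here do not say how reads in shared exons were assigned, so the counts of Tomm6 are uncertain.

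In the space between the membranes the picture was mixed, and this was the only role with a member called in each direction besides TOM. Timm13, which pairs with Timm8a1 in one of the small TIM hexamers, had 121, 103 and 123 CPM with MoS2, against 66.6, 58.9 and 48.1 CPM with PBS. Timm8a1 had 27.8, 25 and 30.6 CPM with MoS2, against 18.2, 15.5 and 18.4 CPM with PBS. Both rose, by log2 fold changes of 1.0 ± 0.11 and 0.68 ± 0.11 (edgeR test, adjusted p 8.6e-07 and 4.8e-05), and under library totals neither passed the test, at 0.23 for Timm13 (adjusted p 0.053) and -0.09 for Timm8a1.

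Timm10 (chr2:84826997-84830213) and Timm9 are the partners of the hexamer that escorts carrier precursors. With TMM scaling Timm10 was called lower and Timm9 was not called. Timm10 had 12.9, 12.3 and 13.7 CPM with MoS2, against 17.2, 17.6 and 13.8 CPM with PBS. The groups nearly touch at the third PBS library, and the call (-0.32 ± 0.12 on the log2 scale, edgeR adjusted p 0.03) was lost without MoS2 replicate 1 or 2 or PBS replicate 1 or 2, with adjusted p of 0.07 to 0.11. Timm9 averaged 26.6 ± 1.66 CPM with MoS2 and 23.6 ± 0.293 CPM with PBS (edgeR adjusted p 0.079). Its log2 fold change of 0.18 became -0.59 under library totals, where Timm9 was called lower (edgeR adjusted p 4e-05). It passed the test without MoS2 replicate 3 (adjusted p 0.039) and with the length trend removed, at 0.50 (edgeR adjusted p 7.2e-05). Chchd4, the oxidoreductase that traps these cysteine-rich proteins by disulfide exchange, had overlapping groups. It had 36.3, 34.5 and 40 CPM with MoS2 and 37.5, 36 and 32.6 CPM with PBS. Its log2 fold change was 0.06 ± 0.09 (edgeR test, adjusted p 0.53). Chchd4 was called lower under library totals, at -0.71, and higher with the length trend removed, at 0.44 (edgeR adjusted p 0.0002).

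All 5 inner membrane translocase genes rose with TMM scaling, while 3 did under library totals, where Timm22 was called lower. Of all genes tested, 38.3% were called higher with TMM scaling, and 18% higher and 67.7% lower under library totals. Timm17a, one of the alternative partners of the TIM23 channel, had 92.3, 80.7 and 89.9 CPM with MoS2, against 30.8, 30.5 and 29.1 CPM with PBS. Timm17b, its alternative, had 41.3, 39 and 49.6 CPM with MoS2, against 20.6, 16.8 and 15.5 CPM with PBS. Their log2 fold changes were 1.54 ± 0.08 and 1.30 ± 0.12 (edgeR adjusted p 3.4e-10 and 2e-07), and both stayed called higher under library totals, at 0.77 and 0.52.

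The channel Timm23 averaged 105 ± 5.34 CPM with MoS2 and 56.5 ± 0.739 CPM with PBS, and the presequence receptor Timm50 averaged 102 ± 6.31 and 47.3 ± 5.58 CPM (SD, n = 3 each). Timm50 rose by a log2 fold change of 1.10 ± 0.09 and Timm23 by 0.89 ± 0.07, and under library totals Timm50 remained called at 0.33 while Timm23, at 0.11, did not. Timm22, the pore for carrier proteins, changed least in this role. It had 20, 20.7 and 25.1 CPM with MoS2, against 19.3, 14.5 and 15.6 CPM with PBS, a log2 fold change of 0.41 ± 0.13 (edgeR test, adjusted p 0.0092) that became -0.36 under library totals. The call was lost without MoS2 replicate 3 or PBS replicate 2, with adjusted p of 0.056 and 0.051.

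**Figure D2:**
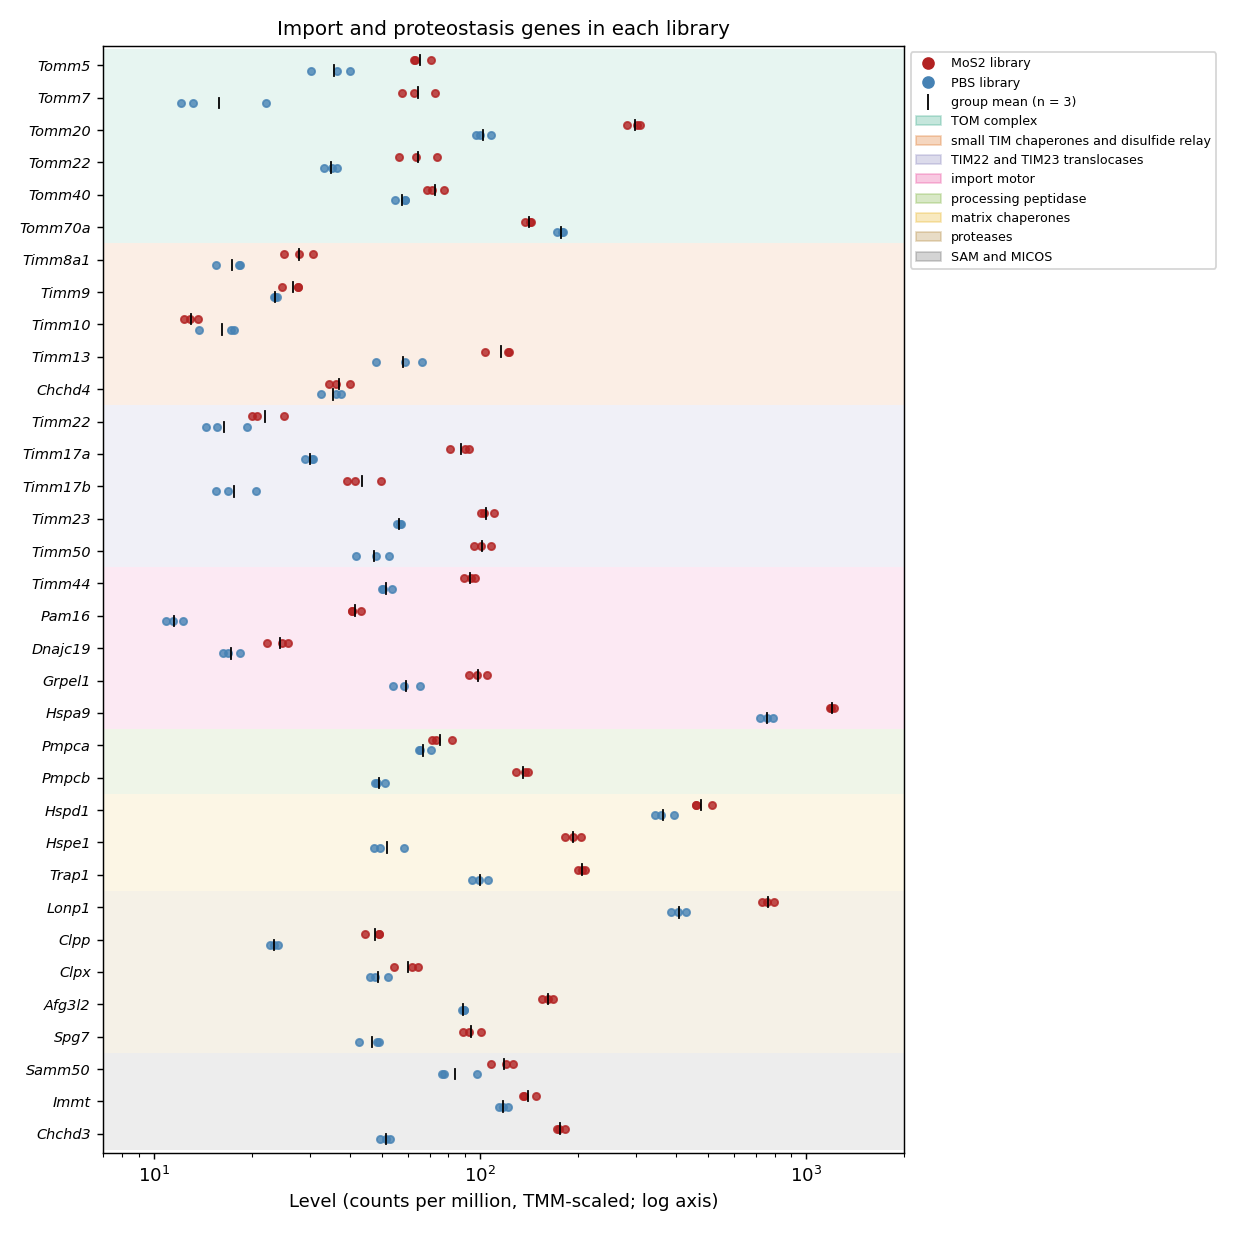
Level of each of the 34 tested genes in every library (TMM-scaled CPM, log axis), MoS2 libraries in red above PBS libraries in blue, with group means as black bars and rows shaded by role. Hspa9 is the highest row, at 1186 to 1219 CPM with MoS2 and 722 to 793 CPM with PBS, and the groups overlap for Chchd4.

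The 5 genes of the import motor also rose with TMM scaling, by quite different amounts, while under library totals Pam16 was called higher and Dnajc19 lower. Among all genes, 38.3% were called higher with TMM scaling, and 18% higher and 67.7% lower under library totals. Pam16, a J-like protein that in yeast holds its J-protein partner in check, had 40.6, 40.5 and 43.2 CPM with MoS2, against 12.3, 10.9 and 11.5 CPM with PBS. Its log2 fold change was 1.84 ± 0.09 (edgeR adjusted p 3.5e-10) and 1.07 under library totals. Dnajc19, the J protein itself, had 24.8, 22.2 and 25.8 CPM with MoS2, against 18.3, 16.3 and 16.9 CPM with PBS, a log2 fold change of 0.50 ± 0.10 that became -0.27 under library totals. Exons of Pam16 overlap those of Glis2 on the other strand over 18.7% of their bases, and Dnajc19 shares 4.4% with the more abundant Fxr1, and the strand setting of the counting is not given.

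Hspa9, the mitochondrial Hsp70 that drives the motor and folds matrix proteins, was the most abundant of the 35 genes per length, at 278 ± 4.29 RPKM (TMM-scaled CPM per kilobase of exon) with MoS2 and 176 ± 8.29 RPKM with PBS. It had 1186, 1188 and 1219 CPM with MoS2, against 793, 759 and 722 CPM with PBS. The groups did not overlap on this scale, and the log2 fold change was 0.66 ± 0.06 (edgeR adjusted p 1.5e-07), but -0.11 under library totals. In counts as deposited, Hspa9 took 21.8 to 22.8% of all counts of the 35 genes in MoS2 libraries and 23.9 to 24.5% in PBS libraries. Grpel1, its nucleotide exchange factor, and Timm44, its anchor at the channel, averaged 98.7 ± 6.36 and 93.1 ± 3.74 CPM with MoS2, against 59.3 ± 5.75 and 51.3 ± 2.04 CPM with PBS. Their log2 fold changes of 0.73 and 0.86 became -0.04 and 0.09 under library totals. Grpel1 shares 11.6% of its exonic bases with Tada2b on the other strand.

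The subunits of the processing peptidase, which cuts off presequences in the matrix, differed. Pmpcb, the catalytic subunit, had 137, 128 and 140 CPM with MoS2, against 51.2, 48.4 and 47.5 CPM with PBS. Pmpca, the subunit that holds the substrate, had 71.3, 81.9 and 73.3 CPM with MoS2, against 65.6, 64.8 and 70.7 CPM with PBS. The log2 fold change was 1.46 ± 0.07 for Pmpcb (edgeR test, adjusted p 1.7e-10) and 0.17 ± 0.07 for Pmpca (adjusted p 0.048), and under library totals they stood at 0.69 and -0.60, each past the threshold. The call for Pmpca was lost without MoS2 replicate 2 or PBS replicate 1 or 2, with adjusted p of 0.08 to 0.20. Exons of Inpp5e on the other strand overlap 20.4% of those of Pmpca.

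Among the matrix chaperones, Hspe1 stood out from Hspd1, its partner in the folding chamber. Hspe1 (chr1:55088132-55091307), the ring that caps the chamber, had 192, 183 and 204 CPM with MoS2, against 58.4, 47.3 and 49.3 CPM with PBS. Hspd1 (chr1:55077835-55088243), the chamber itself, had 459, 460 and 514 CPM with MoS2, against 392, 343 and 358 CPM with PBS. Hspe1 rose by a log2 fold change of 1.90 ± 0.08 (edgeR test, adjusted p 1.1e-10), still 1.13 under library totals, whereas Hspd1 rose by 0.39 ± 0.07 (adjusted p 0.00015) and was called lower, at -0.38, under library totals. Trap1, the mitochondrial Hsp90, had 200, 205 and 209 CPM with MoS2, against 94.7, 106 and 99.1 CPM with PBS, a log2 fold change of 1.03 ± 0.06 that stayed positive and called at 0.26 under library totals. Named processed pseudogenes of Hspd1 and Hspe1 had few counts, the most being 203 over all libraries for Hspd1-ps3. How reads that match several places were treated is not given. Low counts of the copies thus cannot show that the counts of Hspd1 and Hspe1 are unaffected by them.

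Hspd1 and Hspe1 lie head to head on chromosome 1, and the RefSeq start sites used here, at 55087932 on the minus strand and 55088148 on the plus strand (GRCm38.p6), are 216 bases apart. RefSeq also gives Hspd1 a start beyond that of Hspe1, whose window held none of the motifs searched. The region between the first 2 starts holds 1 match to GAANNTTC, an inverted repeat unit of the heat shock element bound by HSF1. GENCODE also annotates this stretch as part of the untranslated first exon of an alternative Hspd1 transcript. The stretch below is the plus strand of chr1:55088053-55088082, with the match in capitals, shown because the same letters lie upstream of both genes, whose fold changes differed.
Hspd1 and Hspe1: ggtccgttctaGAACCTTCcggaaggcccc
Counted from each start site along its own strand, the match begins at position -84 for Hspe1 and at -139 for Hspd1.

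All 5 proteases of the matrix and inner membrane rose with TMM scaling, within a range of log2 fold changes from 0.31 to 1.02. Under library totals 3 were called higher and Clpx lower. The share of all genes called higher was 38.3% with TMM scaling and 18% under library totals, where 67.7% were called lower. Lonp1, which degrades oxidised and unfolded matrix proteins, had 761, 733 and 795 CPM with MoS2, against 428, 404 and 385 CPM with PBS. Its log2 fold change was 0.91 ± 0.06 (edgeR adjusted p 1.1e-08) and 0.14 under library totals, still past the threshold. Per length it was among the 3 most abundant of the 35 genes with MoS2, at 174 ± 7.03 RPKM with MoS2 and 92.8 ± 4.91 RPKM with PBS.

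Clpp, the peptidase barrel of another matrix protease, averaged 47.5 ± 2.78 CPM with MoS2 and 23.4 ± 0.627 CPM with PBS (SD, n = 3 each). Clpx, the unfoldase that feeds it, averaged 60.2 ± 5.13 CPM with MoS2 and 48.6 ± 3.26 CPM with PBS. Clpp rose by a log2 fold change of 1.02 ± 0.08 and Clpx by 0.31 ± 0.08 (edgeR adjusted p 4.2e-08 and 0.0038), and under library totals they stood at 0.25 and -0.46. Afg3l2 and Spg7, which together form the m-AAA protease of the inner membrane, averaged 162 ± 6.39 and 93.8 ± 6.25 CPM with MoS2, against 88.8 ± 0.678 and 46.7 ± 3.53 CPM with PBS. They moved side by side, at log2 fold changes of 0.86 ± 0.06 and 1.01 ± 0.08, and at 0.09 and 0.23 under library totals.

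Chchd3 (chr6:32790976-33060260), a subunit of the MICOS complex at cristae junctions, had the smallest adjusted p of the 34 genes. It had 174, 173 and 182 CPM with MoS2, against 53.1, 49.4 and 51.5 CPM with PBS, a log2 fold change of 1.78 ± 0.06 (edgeR test, adjusted p 1.9e-11) and of 1.01 under library totals. Immt, the core MICOS subunit that Chchd3 binds, had 136, 135 and 148 CPM with MoS2, against 122, 114 and 118 CPM with PBS. Its log2 fold change of 0.25 ± 0.06 (adjusted p 0.0028) became -0.53 under library totals, where Immt was called lower. Samm50, which inserts barrel proteins into the outer membrane and connects to MICOS, averaged 118 ± 9.44 CPM with MoS2 and 83.9 ± 11.8 CPM with PBS. Its log2 fold change of 0.50 ± 0.09 became -0.28 under library totals, where Samm50 was called lower.

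Because the direction of many single genes depended on the scaling, ratios between genes that work as partners were taken within each library, per kilobase of exon. Scaling cancels in such a ratio. Of 13 pairs, 10 had MoS2 and PBS libraries that did not overlap. The share of other gene pairs without overlap was not computed, so this count is no result about partners as such. Among all genes tested, 38.3% were called higher and 42.4% lower with TMM scaling. Those shares count single genes and are no yardstick for the pairs. With 3 against 3 libraries an exact two-sided permutation test cannot give a p under 0.1, which each of those 10 reached, and 0.13 after Benjamini-Hochberg adjustment over the 13 pairs.

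The ratio of the presequence receptor to the carrier receptor changed most. Tomm20 over Tomm70a was 4.23, 4.09 and 4.35 in MoS2 libraries, against 1.21, 1.13 and 1.11 in PBS libraries, a 3.68-fold difference (log2 difference 1.88 ± 0.05, SE, exact permutation p 0.1). Chchd3 over Immt was 5.00, 4.99 and 4.81 with MoS2, against 1.70, 1.69 and 1.71 with PBS, a 2.90-fold difference. Hspe1 over Hspd1 was 0.752, 0.711 and 0.712 with MoS2, against 0.267, 0.247 and 0.247 with PBS, a 2.86-fold difference. These genes share 112 exonic bases on opposite strands, 7.6% of those of Hspe1 and 4.2% of those of Hspd1. In each of these 3 pairs the libraries of a group lay close together and the groups far apart.

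Pam16 over Dnajc19 was 2.71, 3.02 and 2.76 with MoS2, against 1.11, 1.10 and 1.12 with PBS, and Pmpcb over Pmpca was 1.6, 1.31 and 1.59 with MoS2, against 0.650, 0.622 and 0.559 with PBS. These are differences of 2.54-fold and 2.45-fold. Clpp over Clpx and Tomm22 over Tomm40 were 1.64-fold and 1.46-fold higher with MoS2, but their log2 differences of 0.71 and 0.55 became 0.05 and 0.02 once the length trend was removed. Timm10 over Timm9 was 2.46, 2.35 and 2.91 with MoS2, against 3.85, 3.98 and 3.03 with PBS, a log2 difference of -0.49 ± 0.16 that became -1.52 with the length trend removed. Timm8a1 over Timm13 and Timm23 over Timm50 were also lower with MoS2 in every library, at log2 differences of -0.33 ± 0.17 and -0.22 ± 0.11, and the second became -0.47 with the length trend removed.

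The groups overlapped for the other 3 pairs. Grpel1 over Hspa9 was 0.108, 0.0952 and 0.0984 with MoS2 and 0.101, 0.0942 and 0.0913 with PBS, a log2 difference of 0.08 ± 0.07 (exact permutation p 0.4). Spg7 over Afg3l2 had a log2 difference of 0.14 ± 0.08 (exact permutation p 0.2). Timm17a over Timm17b had one of 0.24 ± 0.14 (exact permutation p 0.3), and of 0.51 with the length trend removed. A p that misses the threshold does not show that these ratios were the same in both groups.

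**Figure D3:**
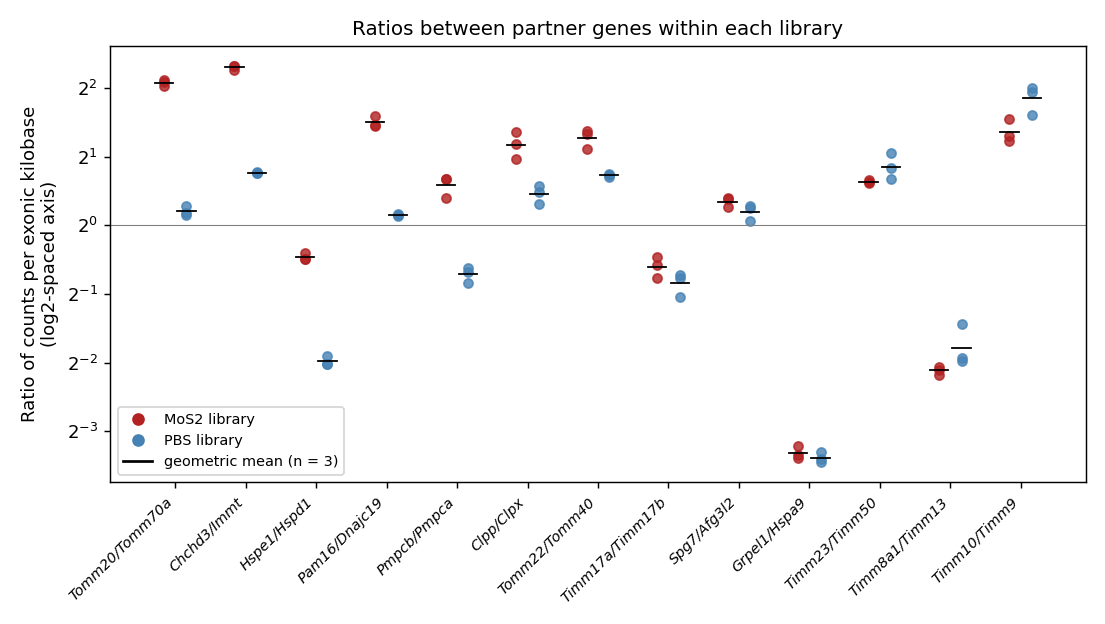
Ratio of counts per exonic kilobase between 13 pairs of partner genes (log2-spaced axis) in each MoS2 library (red) and PBS library (blue), with geometric means as bars, ordered by the difference between groups. The Tomm20 over Tomm70a ratio is 4.09 to 4.35 with MoS2 and 1.11 to 1.21 with PBS, while the groups overlap for Timm17a over Timm17b, Spg7 over Afg3l2 and Grpel1 over Hspa9.

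Shorter genes tended weakly to higher fold changes, both in this set and across the table. Pearson's r between log length and log2 fold change was -0.246 over the 34 genes and -0.225 over all 12972, a description across genes of the same libraries. The 34 genes had a median exonic length of 3511 bases, against 4072 for all genes tested. Short genes such as Tomm7, Hspe1 and Clpp are among those that rose, but so are the long Timm17a, Tomm20 and Afg3l2, and Timm10, the shortest tested gene of the set, fell.

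With each library's trend on length removed, the median log2 fold change of all genes was 0.13, against -0.08 with TMM scaling alone. This left 32 of the 34 called higher, where 44.9% of all genes were, and 1 called lower, Timm10, where 35.5% were. The median of the 34 was then 0.81, and Tomm5 moved most among the TOM subunits, to 0.22 with the trend removed, against 0.88 without. Hspe1 stood at 1.62, Tomm7 at 1.55, Pam16 at 1.90 and Chchd3 at 1.94 with the trend removed, and Timm10 at -1.02. The part of length in the fold changes was otherwise not tested.

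**Figure D4:**
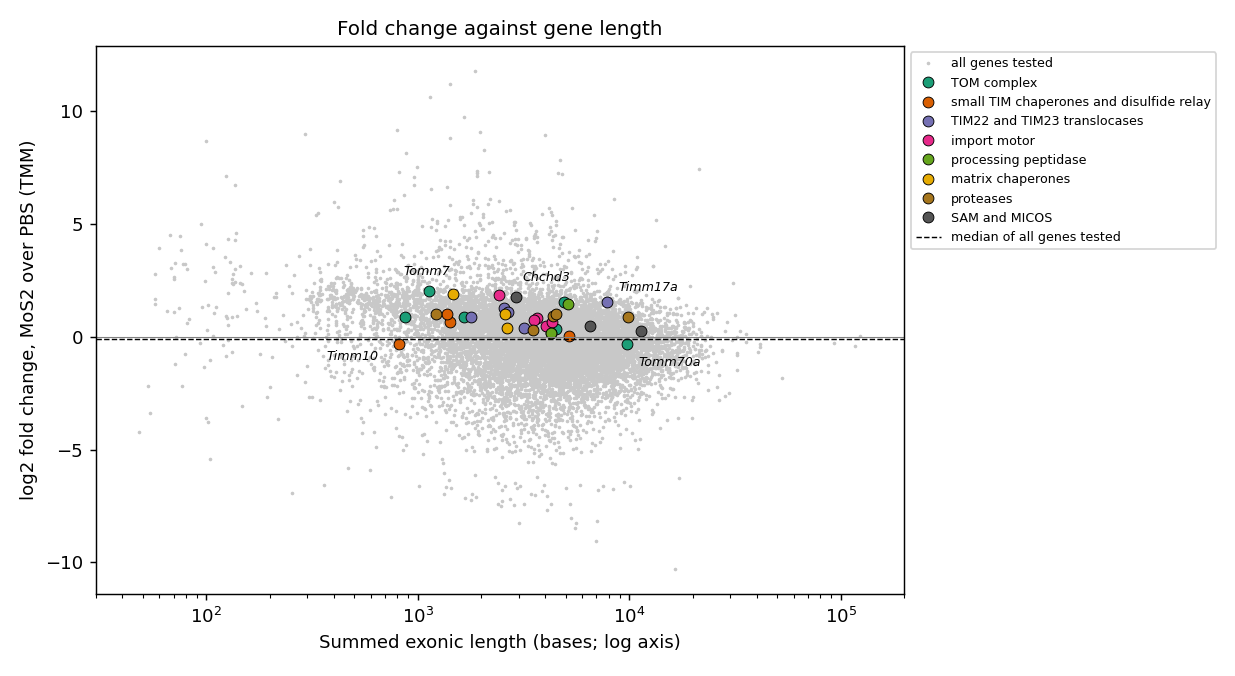
Log2 fold change (MoS2 over PBS, TMM) against summed exonic length in bases (log axis) for the 34 tested genes, coloured by role, over all 12972 genes in grey. The dashed line is the median of all genes, -0.08; 32 of the 34 coloured points lie above it, at short and long lengths alike.

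The wider machinery was also called higher more often than lower with TMM scaling. Of 49 further genes of import, assembly and quality control, 47 were tested, 33 rose, beside 38.3% of all genes, and 7 fell, beside 42.4%, with TMM scaling. Their median log2 fold change was 0.72. Under library totals 18 were called higher, beside 18% of all genes, and 20 lower, beside 67.7%. The 8 with the smallest adjusted p included 7 that rose: Timm8b, another small TIM chaperone (log2 fold change 2.19), Grpel2, the second exchange factor of Hspa9 (1.56), Minos1, a MICOS subunit (1.75), Stoml2, a prohibitin-related scaffold of the inner membrane (1.43), Clpb, a disaggregase of the intermembrane space (1.38), Mipep, which trims presequences further (1.44), and March5, an outer membrane ubiquitin ligase (1.28). Their edgeR adjusted p ran from 5.9e-11 to 1.4e-09, and all 7 stayed above 0 under library totals, at 0.50 to 1.42.

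Timm8b had 127, 122 and 120 CPM with MoS2, against 30.9, 26.4 and 23.8 CPM with PBS, and its exons overlap those of Nkapd1 on the other strand over 15.6% of their bases. The eighth, Mtx3, a metaxin that works with Samm50 at the outer membrane, fell to 7.43, 8.67 and 8.05 CPM with MoS2, against 30.6, 30.1 and 33.4 CPM with PBS, a log2 fold change of -1.96 ± 0.11 (edgeR test, adjusted p 9.3e-10). The groups were far apart, and the value was -2.73 under library totals. Of the other genes called lower, named here after their values were seen, Mul1, an outer membrane ubiquitin ligase, had a log2 fold change of -2.02, and the stress-activated protease Oma1 one of -1.55.

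Regulators that are known to act on these genes did not all move one way. Of 10 listed, 6 rose with TMM scaling, beside 38.3% of all genes, 2 fell, beside 42.4%, and 2 did not pass the test. Ddit3, which encodes CHOP, had 623, 595 and 685 CPM with MoS2, against 59.2, 50.4 and 49.1 CPM with PBS, a log2 fold change of 3.58 ± 0.09 (edgeR test, adjusted p 4.6e-13). Atf4, the main effector of the integrated stress response, had 1345, 1281 and 1425 CPM with MoS2, against 531, 478 and 449 CPM with PBS, a log2 fold change of 1.47 ± 0.07 (edgeR test, adjusted p 3.2e-10). Both stayed higher under library totals, at 2.81 and 0.70.

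Atf5, the factor most often linked to the mammalian mitochondrial unfolded protein response, lay the other way. It had 34.7, 35.4 and 32.6 CPM with MoS2, against 140, 119 and 120 CPM with PBS, a log2 fold change of -1.89 ± 0.08 (edgeR test, adjusted p 9.5e-11) and of -2.66 under library totals. RNA levels of Atf4 and Atf5 do not give their protein levels, which are known to depend on translation. Cebpb, a partner of CHOP, rose by 0.90 on the log2 scale (0.12 under library totals), with Tmem189 overlapping 20.7% of its exonic bases on the other strand. Eif2s1, the initiation factor subunit phosphorylated in the integrated stress response, rose by 0.78 (0.01 under library totals). Hsf1 and Nrf1 rose by 0.31 and 0.33, but stood at -0.46 and -0.44 under library totals. Eif2ak1, the kinase that senses mitochondrial stress through Dele1, had a log2 fold change of -0.33 (edgeR test, adjusted p 0.0015), of -1.10 under library totals and of 0.05 with the length trend removed. Dele1 (0.14, edgeR adjusted p 0.21) and Gabpa (0.00, adjusted p 0.98), a subunit of an activator of many mitochondrial genes, did not pass the test with TMM scaling. Both were called lower under library totals, at -0.63 and -0.77, and higher with the length trend removed, at 0.49 and 0.37.

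**Figure D5:**
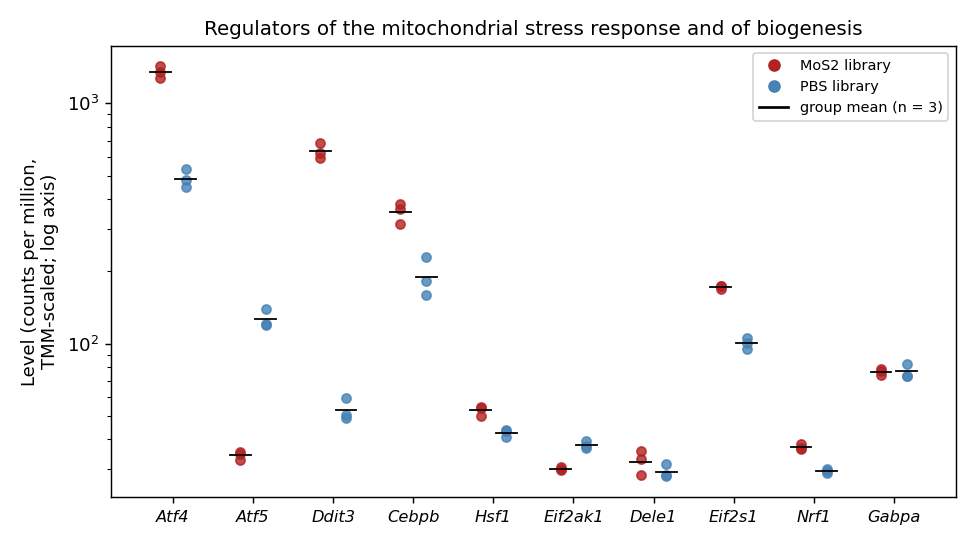
Level (TMM-scaled CPM, log axis) of 10 regulators of the mitochondrial stress response and of nuclear genes for mitochondria, in MoS2 libraries (red, left of each pair) and PBS libraries (blue), with group means as bars. Ddit3 is at 595 to 685 CPM with MoS2 and 49.1 to 59.2 CPM with PBS, while Atf5 is at 32.6 to 35.4 CPM with MoS2 and 119 to 140 CPM with PBS.

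Letters of 4 motifs were looked up on both strands of the RefSeq promoter windows (250 bases before to 50 after the start, GRCm38.p6) that 32 of the 35 genes had. The composite ATF4 and CHOP motif, TGATGNAAT, occurred in none of the 32 genes' windows, and in 0.46% of 11946 windows of tested genes. The ETS motif of GABP, CCGGAAG, occurred in 12 of the 32 genes, or 12 of their 34 windows, beside 18.2% of the windows of tested genes. The heat shock unit, searched as GAANNTTC alone, occurred in 3 of the 34 windows, in Hspd1, Hspe1 and Timm9, beside 5.79%. The NRF1 core, GCGCATGC or its reverse complement GCATGCGC, occurred in 3 of the 34 windows, in Clpx, Grpel1 and Timm13, beside 5.27%. A match is a description of letters and not a site in use, and the ETS matches of Hspd1 and Hspe1 overlap the heat shock unit.

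The NRF1 matches are shown because they fall in genes of 3 different roles, each read along its gene's strand with the match in capitals. Clpx is chr9:65294154-65294201 on the plus strand, Grpel1 chr5:36465138-36465167 on the plus strand, in a stretch that GENCODE annotates as untranslated first exon, and Timm13 chr10:80901134-80901181 on the minus strand.
Clpx: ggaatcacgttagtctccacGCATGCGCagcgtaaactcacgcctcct
Grpel1: aaggggcgtccGCGCATGCtcagtgtgggc
Timm13: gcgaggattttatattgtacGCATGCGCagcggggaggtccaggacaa
With TMM scaling these genes rose by log2 fold changes of 0.31, 0.73 and 1.0. Under library totals Clpx was called lower, at -0.46, and Grpel1 (-0.04) and Timm13 (0.23) were not called. Any part of the motif in the fold changes was not tested.

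The 12 genes with the ETS letters include both genes called lower with TMM scaling, Tomm70a and Timm10. The others were called higher: Chchd3, Clpp, Grpel1, Hspd1, Hspe1, Immt, Pmpca, Pmpcb, Timm23 and Tomm22. Of all 34 tested genes of the set, 30 were called higher and 2 lower, beside 38.3% and 42.4% of all genes tested. Under library totals Chchd3, Clpp, Hspe1 and Pmpcb were called higher, and Hspd1, Immt, Pmpca, Tomm70a and Timm10 lower. Grpel1, Timm23 and Tomm22 were not called there, where 18% of all genes were called higher and 67.7% lower. A gene from each direction is shown as an example, and any part of the motif in the fold changes was not tested. Chchd3 carries CCGGAAG in chr6:33060363-33060410 on the minus strand, and Tomm70a in chr16:57121614-57121661 on the plus strand, with the match in capitals.
Chchd3: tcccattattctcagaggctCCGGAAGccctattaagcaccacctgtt
Tomm70a: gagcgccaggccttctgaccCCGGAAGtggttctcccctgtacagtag
Relative to the start site the match begins at position -130 in Chchd3, whose log2 fold change was 1.78, and at -80 in Tomm70a, whose log2 fold change was -0.33 with TMM scaling and 0.07 with the length trend removed.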

How the data were processed

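The authors deposited 1 table of raw read counts, in whole numbers. The submitters' processing notes list the tools fastp 0.20.0, HISAT2 2.1.0 and, for counting, featureCounts 1.6.1. They also list GRCh38, which is human, but 54349 of the 55401 mouse identifiers match GENCODE M21 (GRCm38) in version and coordinates, so coordinates are on GRCm38. Table columns carry a letter and a number, which were matched to MoS2 or control and to the replicate. The sources used here give neither strand setting nor treatment of multi-mapping reads.

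Computed here: edgeR 4.0.16 quasi-likelihood test (limma 3.58.1, R 4.3.3) on all 6 libraries with group as the only term, TMM factors, the default low-count filter (about 10 counts in 3 libraries) and Benjamini-Hochberg adjustment over all 12972 genes tested. Fold changes (MoS2 over PBS) carry a prior count of 0.125; SE is the fold change over the square root of F. CPM and RPKM use TMM factors and the table's exonic lengths. The fit was tested on simulated data in which 200 genes changed, in random directions, and both groups had like composition. That test does not cover the difference in composition seen here, or the choice of scaling.

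The genes, further lists, partner pairs and motifs were chosen with earlier results of these data known. All 35 genes and all regulators are named, with the 8 further genes of smallest adjusted p among those called. Alternatives were RLE, upper-quartile and total scaling, other filters, DESeq2 1.42.0, limma-voom, a replicate term, a stricter p, a fold of 1.2, length-trend removal, and each library left out. Promoter sequences are RefSeq's (GRCm38.p6).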

Additional observations from a re-analysis of the deposited data

How the results depend on the processing

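Over 17 alternatives, 524 of 578 values of single genes kept their direction and their side of the threshold, 33 kept the direction but no longer passed, 4 newly passed and 17 changed sign. Scaling decided most. With library totals alone, 13 genes of the set were called higher and 12 lower, their median was 0.10, and 18 further genes were called higher and 20 lower. Of all genes tested, 18% were called higher and 67.7% lower with this scaling, and their median was -0.85. Signs then changed for Tomm40 (-0.44), Timm8a1 (-0.093), Timm9 (-0.59), Chchd4 (-0.71), Timm22 (-0.36), Dnajc19 (-0.27), Grpel1 (-0.039), Hspa9 (-0.11), Pmpca (-0.60), Hspd1 (-0.38), Clpx (-0.46), Samm50 (-0.28) and Immt (-0.53), and 8786 of all genes were called lower; the shift of all genes follows from the scaling factors. Upper-quartile factors gave a median of 0.74 and no low-count filter one of 0.78, with Chchd4 at -0.070 and -0.020. Tomm70a was 0.069 with the length trend removed. The count called lower was 1 with DESeq2, with RLE factors, at an adjusted p under 0.01 and with the length trend removed, and 0 in the test against a fold of 1.2. Leaving out 1 library at a time gave 1 to 2 called lower, and Chchd4 ran from -0.011 to 0.11. The cause of the changes other than the scaling shift was not tested.

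Deviations of same-numbered libraries from their group means correlated at -0.02, -0.01 and -0.14. No library of one group correlated best with its own number in the other. With 3 libraries centred within each group such correlations must offset one another. This check thus cannot show whether same-numbered libraries are paired. With the replicate block, 10203 genes were called, 29 of the set higher and 2 lower, and Pmpca was lost (adjusted p 0.085). Tomm6, at 25 counts over all libraries, was too low to test.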
